A study of Mus musculus with 8 samples.

Results

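The 9 genes described here are Pls3, Coro1c, Ncald, Chp1 and Zpr1, which are known as modifiers of spinal muscular atrophy (SMA), and Bicd2, Ighmbp2, Trip4 and Asah1, whose mutations cause forms of SMA that leave the SMN1 gene intact. They were listed by name and not picked by any value measured here, though with earlier results of these data known. They are 9 of the 21874 genes with a protein-coding transcript in the table. For each of them the protein-coding transcript that gathered most reads over the 8 libraries was taken. Ribosome footprints, the short RNA fragments that a ribosome protects from nuclease, were sequenced from whole mouse brain at postnatal day 5 in 8 libraries. Footprints bound by an antibody against SMN came from 3 control brains of genotype Smn+/-; SMN2tg/0, and 1 library from the same genotype was precipitated with IgG to measure unspecific binding. From symptomatic brains of genotype Smn-/-; SMN2tg/0 there were 2 libraries made with RiboLace, which captures ribosomes that are actively translating, and 2 made from polysomes separated on a sucrose gradient. All animals were of the Taiwanese model on an FVB background, and all carried the human SMN2 transgene. The controls were thus heterozygous littermates with 1 Smn allele left, not wild-type mice. No RiboLace or polysome library of control brain and no immunoprecipitate of SMA brain was analysed here, so no comparison below sets SMA against control within 1 protocol.

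SMN is best known for assembling spliceosomal ribonucleoproteins, and it also binds ribosomes. Its loss kills spinal motor neurons, and the severity of the disease varies with other genes. Plastin 3 (Pls3) bundles actin filaments, coronin 1C (Coro1c) binds them, and raised levels of either restore endocytosis in SMN-deficient cells. Neurocalcin delta (Ncald), a neuronal calcium sensor, and Chp1, which binds calcineurin and the sodium-proton exchanger, act the other way, since lowering either is protective in SMA models. Zpr1 is a zinc finger protein that binds SMN and helps it accumulate in nuclear bodies. Bicd2 links cargo to the dynein motor, Ighmbp2 is a helicase associated with ribosomes and tRNA, Trip4 is a subunit of the activating signal cointegrator complex, and Asah1 is the lysosomal acid ceramidase.

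Libraries differed widely in depth. Counted as 1 transcript per gene, the coding total was 133295 to 237760 reads in the SMN immunoprecipitates, 206690 in the IgG library, 39375 and 47846 in the RiboLace libraries, and 1661834 and 2295393 in the polysome libraries. The 9 genes together held 16 and 25 reads in the RiboLace libraries, 50 to 127 in the immunoprecipitates and 770 and 1044 in the polysomes. The second SMN library stood apart: over summed reads its chi-square per gene was 5.23 and 5.47 against the other SMN libraries and 6.16 against IgG, while the first differed from the third by 2.99. Labels name the libraries of a group as biological replicates. All 15 neuron markers had reads in each group, with summed levels between 6327 and 9594 CPM, the reads of a gene scaled to a common total over the coding genes of its library. The 7 markers of motor neurons, the cells that SMA affects, summed to between 7.78 and 141 CPM, and Mnx1 was at 0 in the SMN, IgG and polysome groups. In whole brain, fewer cells of a type and fewer footprints per cell cannot be told apart. Smn1 itself was at 155, 109 and 127 CPM in the SMN immunoprecipitates and 31.1 in IgG, a difference of 2.04 ± 0.68 on the log2 scale (SE) that did not pass the edgeR test (adjusted p = 0.686). It was at 42.4 and 43.1 CPM in the polysomes of Smn-/- brain. The knockout allele of this model replaces a late exon only, so reads over the whole gene do not check the genotype, and reads from the SMN2 transgene were not told apart from mouse Smn1.

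How reads were spread over isoforms matters for every value below. Each gene had between 3 and 12 annotated transcripts in the table, and the most covered coding transcript held between 14.8% of the gene's reads (Ncald) and 40.8% (Ighmbp2). For Coro1c, 67.0% of 2183 reads lay on transcripts of other biotypes, such as retained introns and targets of nonsense-mediated decay, against 0.456% of 878 reads for Pls3 and 0% of 720 reads for Bicd2. Reads that match several isoforms appear to be divided among them. Among 31 pairs of coding transcripts with the same coding and untranslated lengths, none had equal counts in both polysome libraries. The change in the ratio of their counts between these libraries had a standardized SD of 0.792. A read counted for both transcripts would give an SD near 0, and independent counts an SD near 1. Each comparison is therefore given for the chosen transcript, as the selection rule asks, and for reads summed over all transcripts of a gene, an alternative added after the data were seen. In CPM, each kind of count is divided by its own library total. Compared with all coding genes, the 9 chosen transcripts had long 3' untranslated regions, with a median of 1867 nt against 587 nt, while the coding medians were 1425 and 1134 nt.

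**Figure D1:**
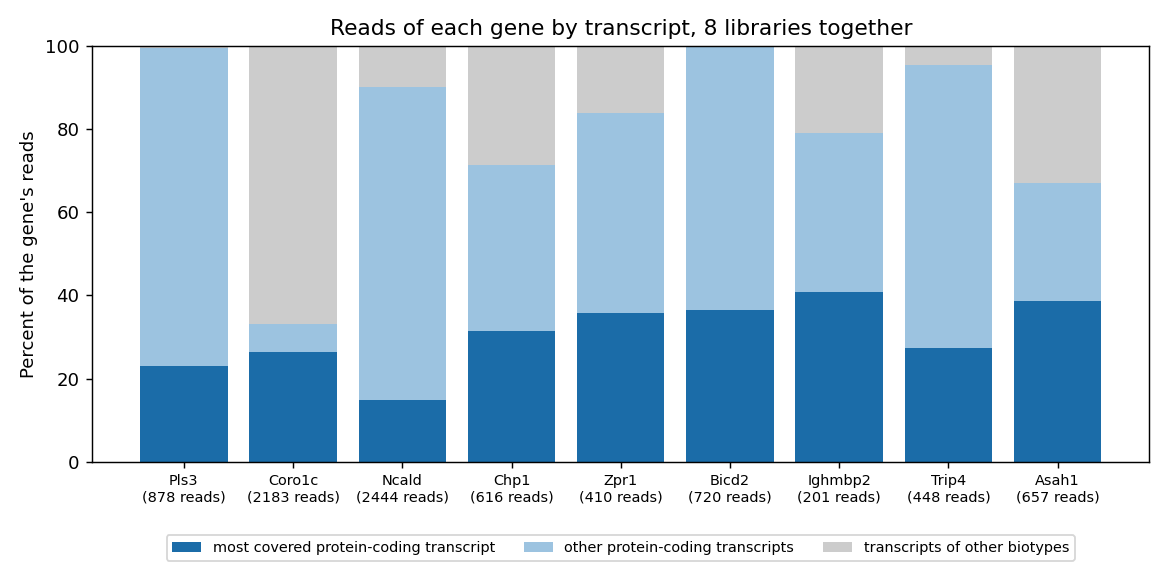
Percent of each gene's reads (vertical axis) on its most covered protein-coding transcript, on other protein-coding transcripts and on transcripts of other biotypes, with the 8 libraries together. The chosen transcript holds a minority of the reads of each gene, from 14.8% for Ncald to 40.8% for Ighmbp2, and Coro1c stands out with 67.0% of its reads on other biotypes.

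With reads summed over transcripts and divided by the coding length, Ncald was the most densely covered of the 9 genes and Ighmbp2 the least. In polysomes this gave Ncald 433 ± 12.8 CPM per coding kb (SD, n = 2), ahead of Coro1c at 149 ± 3.10 and Chp1 at 115 ± 4.33. Asah1 at 59.0 ± 11.1 and Pls3 at 48.8 ± 4.86 overlapped, as did Zpr1 at 31.4 ± 2.08 and Bicd2 at 29.6 ± 2.27. Trip4 followed at 26.5 ± 0.904, and Ighmbp2 was last at 7.002 ± 1.57 CPM per coding kb. Ncald, Coro1c and Chp1 thus led by this count, and 3 of the 4 genes of non-SMN1 SMA took the last places. Summed reads include transcripts of other biotypes, which held 67.0% of Coro1c reads and 28.6% of Chp1 reads over the 8 libraries. For the chosen transcript, Coro1c at 77.7 and Chp1 at 74.5 CPM per coding kb overlapped in polysomes.

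The same genes stood at both ends in the other fractions. In the SMN immunoprecipitates Ncald stood at 330 ± 113 and Coro1c at 175 ± 42.0 CPM per coding kb (SD, n = 3), which overlapped, and Ighmbp2 at 8.82 ± 2.93 lay below the other 8 genes without overlap. Between them, the 6 genes from Chp1 (46.7 ± 29.9) to Bicd2 (20.0 ± 7.56) overlapped with their neighbours. In the RiboLace libraries the leading genes were again Ncald (504 ± 161), Coro1c (156 ± 24.8) and Chp1 (103 ± 50.1), and Ighmbp2 (1.94 ± 2.75) rested on 1 read in all. The IgG library gave 464 CPM per coding kb for Ncald, 186 for Coro1c and 69.4 for Chp1. The order depended on the count and the length used. For the chosen transcript, Coro1c led in the SMN libraries (129 CPM per coding kb against 123 for Ncald, which overlapped). In RiboLace the chosen transcript of Chp1, at 82.6 CPM per coding kb, stood ahead of Coro1c at 65.0, with overlap. Per kilobase of the whole chosen transcript, Coro1c led in all 4 groups and Trip4 was last in SMN, IgG and polysomes.

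**Figure D2:**
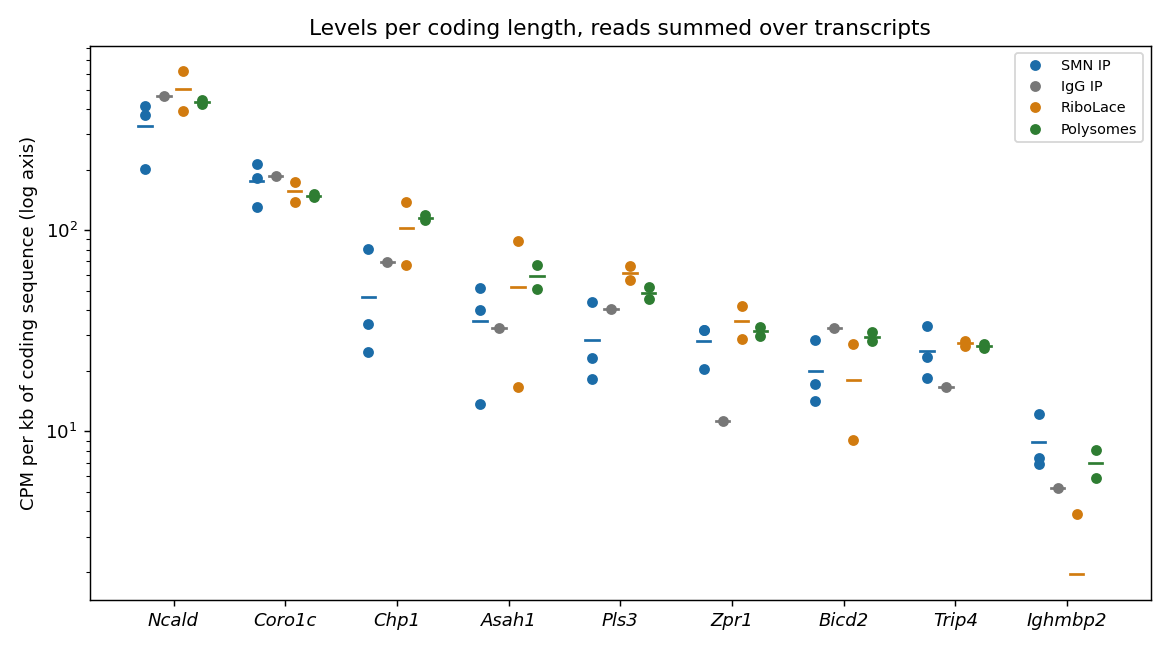
Level of each gene per kilobase of coding sequence (CPM per kb, log axis), from reads summed over transcripts, with 1 point per library and a bar at the group mean. Ncald is highest and Ighmbp2 lowest in all 4 groups, and the first RiboLace library, with 0 reads of Ighmbp2, has no point there.

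The actin genes differed from each other across fractions. Pls3 had 3, 5 and 12 reads of its chosen transcript in the SMN immunoprecipitates, 7 in IgG, 3 and 2 in RiboLace, and 83 and 88 in polysomes. Summed over transcripts, its level was 35.1, 44.4 and 84.8 CPM in the SMN libraries, 77.8 in IgG, 109 and 128 in RiboLace, and 100 and 87.2 in polysomes. The RiboLace libraries were thus highest and the first pair of SMN libraries lowest, with IgG and the third SMN library just below the polysomes. Coro1c, the most abundant of the 9 transcripts in reads, had 30, 21 and 42 reads in the SMN libraries, 35 in IgG, 4 and 4 in RiboLace, and 176 and 265 in polysomes. As CPM of the chosen transcript these were 217, 158 and 177 in SMN, 169 in IgG, 83.6 and 102 in RiboLace, and 106 and 115 in polysomes. All 4 immunoprecipitates lay above all 4 other libraries. Summed over transcripts, that separation was lost, since Coro1c was at 305, 186 and 258 CPM in SMN, 264 in IgG, 247 and 197 in RiboLace, and 209 and 215 in polysomes, and the second SMN library fell below both polysome libraries.

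Both calcium-binding modifiers were low in the first SMN library. Ncald had 6, 11 and 21 reads of its chosen transcript in the SMN libraries, 18 in IgG, 1 and 6 in RiboLace, and 136 and 163 in polysomes. Its summed level was 117, 218 and 241 CPM in SMN, 270 in IgG, 227 and 359 in RiboLace, and 257 and 247 in polysomes. Each SMN value was below IgG and below both polysome values. Chp1 had 1, 1 and 6 reads in the SMN libraries, 7 in IgG, 1 and 3 in RiboLace, and 71 and 103 in polysomes. Its summed level was 14.6, 20.2 and 47.5 CPM in SMN, 40.8 in IgG, 39.5 and 81.2 in RiboLace, and 66.0 and 69.6 in polysomes. The 4 immunoprecipitates were all below both polysome libraries, and the third SMN library was above IgG.

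Zpr1 is the SMN-binding protein. Its chosen transcript had 5, 1 and 8 reads in SMN, 3 in IgG, 1 and 1 in RiboLace, and 51 and 77 in polysomes. Summed, it was at 43.9, 28.3 and 44.1 CPM in SMN, 15.6 in IgG, 39.5 and 58.0 in RiboLace, and 45.4 and 41.3 in polysomes. The summed IgG value was the lowest of the 8, while for the chosen transcript the second SMN library was lower (7.50 against 14.5 CPM). The summed IgG value rested on 8 reads, for which the 95% interval, exact Poisson and for counting error only, was 6.72 to 30.7 CPM.

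Among the genes of non-SMN1 SMA, Bicd2, the dynein adaptor, had 6, 2 and 16 reads in SMN, 15 in IgG, 3 and 1 in RiboLace, and 98 and 122 in polysomes. Its summed level was 43.9, 36.3 and 73.0 CPM in SMN, 83.6 in IgG, 69.2 and 23.2 in RiboLace, and 79.8 and 71.5 in polysomes. IgG was highest, and the third SMN library lay above 1 of the polysome libraries while the other SMN and RiboLace values were below both. Ighmbp2, the helicase, had 3, 3 and 4 reads in SMN, 4 in IgG, 0 and 1 in RiboLace, and 37 and 30 in polysomes. Summed, it was at 20.5, 36.3 and 22.1 CPM in SMN, 15.6 in IgG, 0 and 11.6 in RiboLace, and 24.2 and 17.6 in polysomes. A count of 0 in the first RiboLace library allows up to 62.7 CPM of the chosen transcript, 3 reads at that depth, which is above every other library's value.

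Trip4 had 6, 3 and 7 reads in SMN, 7 in IgG, 2 and 3 in RiboLace, and 46 and 49 in polysomes. Its summed level was 58.6, 32.3 and 40.7 CPM in SMN, 29.2 in IgG, 49.4 and 46.4 in RiboLace, and 45.1 and 47.3 in polysomes, the narrowest spread of the 4 genes. Asah1, the ceramidase, had 8, 3 and 11 reads in SMN, 8 in IgG, 1 and 4 in RiboLace, and 72 and 147 in polysomes. Summed, it was at 61.5, 16.2 and 47.5 CPM in SMN, 38.9 in IgG, 19.8 and 104 in RiboLace, and 60.6 and 79.3 in polysomes. Its RiboLace values differed from each other more than the polysome values did, with 1 above every other library and 1 below all but the second SMN library.

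**Figure D3:**
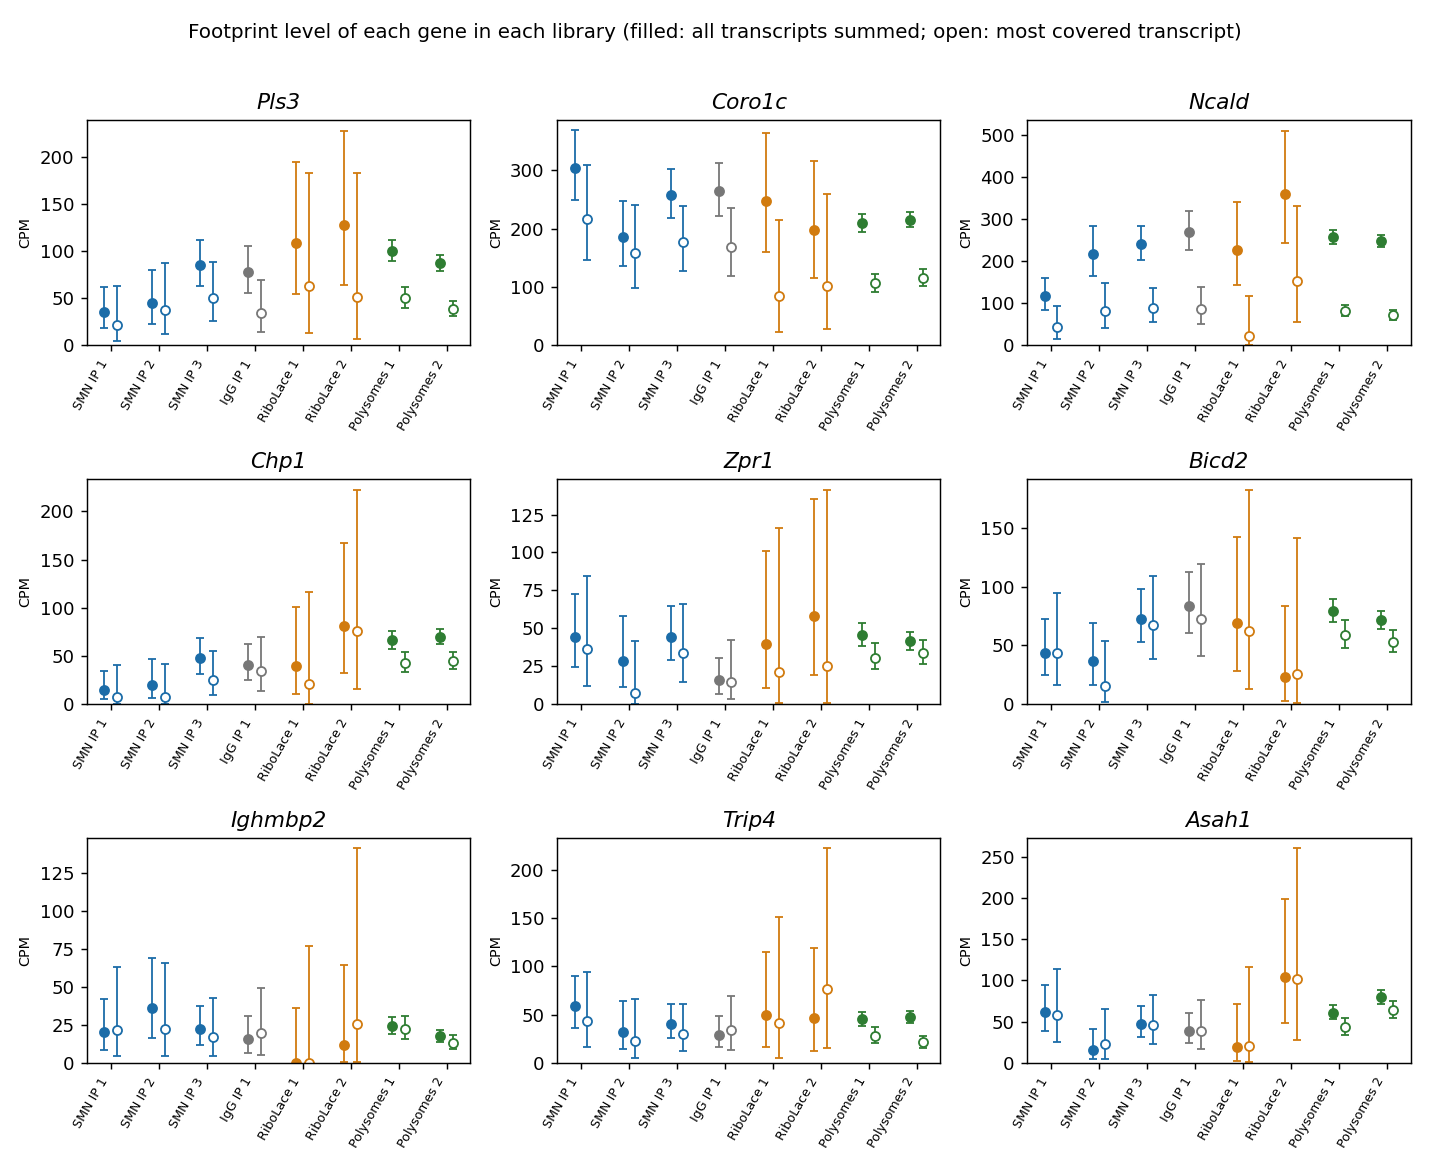
Level of each of the 9 genes (CPM, linear axis) in each of the 8 libraries, with exact Poisson 95% intervals that cover counting error. Filled points are reads summed over transcripts and open points the most covered transcript: open Coro1c points are higher in all 4 immunoprecipitates than in the other libraries, filled ones are not, and the RiboLace intervals are the widest.

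The first comparison asked which footprints were bound through SMN and not through the beads or the antibody. None of the members passed it. Only Coro1c, Ncald and Bicd2 had enough reads of the chosen transcript to be tested, with log2 differences, SMN minus IgG, of 0.13 ± 0.52, -0.24 ± 0.62 and -0.66 ± 0.67 (SE, 3 libraries against 1, edgeR adjusted p near 1.0 for each). Over all genes 1 of 5517 was called (0.0181%), the predicted gene Gm21887, which was lower in SMN and is named after its value was seen; 148 genes had an unadjusted p under 0.05, and none of them was a member. DESeq2 called 0 genes and limma-voom 1, with no member at an unadjusted p under 0.05 by either.

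Summed over transcripts, all 9 genes could be tested against IgG and 0 were called, as were 0 of all 9048 genes, 307 of which had an unadjusted p under 0.05. The modifiers lay on both sides of 0. Zpr1 had the largest difference at 1.31 ± 0.87 (edgeR adjusted p = 0.999), while Ncald was at -0.53 ± 0.50, Chp1 at -0.51 ± 0.77, Pls3 at -0.48 ± 0.61 and Coro1c at -0.10 ± 0.51. Of the other SMA genes, Ighmbp2 stood at 0.67 ± 0.95, Trip4 at 0.57 ± 0.76, Asah1 at 0.13 ± 0.72 and Bicd2 at -0.68 ± 0.61. The SE values ran from 0.50 for Ncald to 0.95 for Ighmbp2 on the log2 scale, with a single control library.

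The second comparison, RiboLace against polysomes within SMA brain, asked how ribosomes captured as active differ from those sedimenting with polysomes. None of the 9 genes passed, where 235 of 10807 genes did (2.17%), 133 of them higher in RiboLace (1.23%) and 102 lower (0.944%). None of the 9 had an unadjusted p under 0.05 with edgeR, although 1586 genes did; limma-voom called no gene and gave Trip4 the only member p under 0.05. Trip4 had the largest difference, 1.19 ± 0.83 (SE, 2 libraries against 2, edgeR adjusted p = 0.481), from 59.0 ± 24.3 CPM in RiboLace (SD, 5 reads) and 24.5 ± 4.48 in polysomes. With reads summed it was 0.15 ± 0.59. The actin genes gave 0.34 ± 0.73 (Pls3) and -0.33 ± 0.49 (Coro1c), the calcium-binding genes 0.030 ± 0.57 (Ncald) and 0.0084 ± 0.78 (Chp1), and Asah1 0.0068 ± 0.69.

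Like Coro1c, the genes Zpr1, Bicd2 and Ighmbp2 were below 0 in RiboLace, at -0.55 ± 1.05, -0.33 ± 0.74 and -0.62 ± 1.49. The median of all genes in this fit was -0.31, with 36.0% of genes above 0, so Bicd2 and Coro1c lay near that median. Zpr1 rested on 2 RiboLace reads, and its pooled ratio of RiboLace to polysome CPM was 0.709 (95% counting interval 0.0849 to 2.61). Ighmbp2 rested on 1 read, with a ratio of 0.677 (0.0169 to 3.90). Summed over transcripts, where the share called was 2.57% (317 of 12320 genes, 2.05% higher and 0.528% lower), 0 of 9 members were called, the values ran from -1.83 ± 1.42 for Ighmbp2 to 0.43 ± 0.38 for Pls3, and Coro1c, Chp1, Zpr1 and Asah1 changed sign. Blood markers moved with the protocol: the 7 genes summed to 4130 and 4627 CPM in RiboLace and to 1581 and 2168 in polysomes. Alas2 and Slc4a1 were at 0 in RiboLace. The 11 microglia markers summed to 237 to 255 CPM in RiboLace and 477 to 491 in polysomes, with Aif1, Ctss, Tmem119 and Tyrobp at 0 in RiboLace. The part of either list in the member values was not tested.

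The comparison of SMN immunoprecipitates with polysomes crosses both genotype and protocol, which cannot be told apart. Coro1c rose. Its chosen transcript was at 184 ± 30.4 CPM in SMN (SD, n = 3) and 111 ± 6.75 in polysomes (SD, n = 2), a log2 difference of 0.98 ± 0.22 (SE, edgeR adjusted p = 0.00523), higher in 3 of 3 SMN libraries. It was the only call among 6 members with enough reads to be tested, where 27.5% of all genes were called (1783 of 6484). In this comparison 16.4% of genes were called higher (1063) and 11.1% lower (720), so 1 of 6 is near the share over all genes. DESeq2 and limma-voom also called Coro1c and no other member. Scaling by library totals left Coro1c called but turned the split of all calls to 671 higher and 1447 lower, and moved the median of all genes from -0.015 to -0.28.

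Chp1 lay on the opposite side, with 13.3 ± 10.3 CPM in SMN and 43.8 ± 1.52 in polysomes, a log2 difference of -1.22 ± 0.50 (edgeR adjusted p = 0.0806). Its 3 SMN values, from 1, 1 and 6 reads, were all below both polysome values. In the first and second SMN libraries 3 reads were worth 21.7 and 22.5 CPM, above the Chp1 values there. Scaling by library totals brought Chp1 past the threshold (-1.48, adjusted p = 0.0313), and also moved the median of all genes to -0.28. Over its alternatives for single transcripts, edgeR, DESeq2 and limma-voom adjusted p ran from 0.0313 to 0.304. Pls3 (0.11 ± 0.39), Ncald (0.24 ± 0.29), Bicd2 (0.015 ± 0.37) and Asah1 (-0.084 ± 0.40) were not past the test. Zpr1, Ighmbp2 and Trip4 had too few reads.

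With reads summed over transcripts the Coro1c call was not kept. Its summed levels were 249 ± 59.8 CPM in SMN and 212 ± 4.42 in polysomes, a log2 difference of 0.61 ± 0.30 (edgeR adjusted p = 0.196), with 9.08% of all genes called (897 of 9882, 5.67% higher and 3.41% lower) and 0 of 9 members. Chp1 stood at -0.76 ± 0.38 (adjusted p = 0.210), Ighmbp2 at 0.63 ± 0.37 and the other 6 members between -0.32 (Pls3) and 0.30 (Trip4). Without the second SMN library the summed difference was 0.84 with an edgeR adjusted p of 0.00393, in a fit that called 3433 of 12546 genes. In that library 45.7% of Coro1c reads lay on the chosen transcript (exact binomial 95% interval 30.9 to 61.0%), against 28.8% and 27.6% in the other SMN libraries, 25.7% in IgG and 25.2% and 26.4% in polysomes. For the chosen transcript the call was also lost without the first SMN library (adjusted p = 0.0545), the third one (0.0571), or either polysome library (0.352 and 0.298), and was kept without the second. The difference itself was 0.86, 0.99, 0.90 and 1.00 in these 4 fits and 1.02 in the last.

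The IgG library was set against the same polysomes as a background for the precipitation, again across genotype and protocol, from 1 library against 2, with the spread taken from the polysome pair alone. Its p-values thus assume that a precipitate varies as little as polysomes do, while the chi-square per gene was 2.99 to 5.47 between SMN libraries and 1.88 between polysome libraries, so each call below compares this 1 library with the polysomes and not the conditions. It shares the polysome libraries with both preceding comparisons and the IgG library with the first, so these values are not independent. Coro1c was higher here too, at 169 CPM against 111 ± 6.75, a log2 difference of 0.80 ± 0.26 (edgeR adjusted p = 0.0235). It was the 1 call among 9 members, where 19.5% of all genes were called (2474 of 12709), 1311 higher (10.3%) and 1163 lower (9.15%). The call was lost with DESeq2, with library totals (which also turned the split to 1037 higher and 1840 lower and the median of all genes from -0.13 to -0.33), with no filter on low counts and with all 8 libraries in 1 fit, and its adjusted p over the alternatives ran from 0.0120 to 0.198.

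The other members against polysomes were at -0.16 ± 0.53 (Pls3), 0.40 ± 0.35 (Ncald), -0.18 ± 0.51 (Chp1), -0.96 ± 0.71 (Zpr1), 0.58 ± 0.39 (Bicd2), 0.37 ± 0.76 (Ighmbp2), 0.68 ± 0.58 (Trip4) and -0.31 ± 0.50 (Asah1). Zpr1 rested on 3 IgG reads, a ratio of 0.449 (95% counting interval 0.0913 to 1.34). Summed over transcripts, 36.6% of genes were called (19.1% higher and 17.5% lower) and 2 of 9 members were, Coro1c at 0.72 ± 0.16 (edgeR adjusted p = 3.95e-05) and Ncald at 0.51 ± 0.16 (adjusted p = 0.00537). Bicd2 at 0.56 ± 0.23 (adjusted p = 0.0514) and Zpr1 at -1.06 ± 0.43 (adjusted p = 0.0539) lay just outside.

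Side by side, Coro1c was at 0.98 for SMN and 0.80 for IgG against the same polysomes, and the direct difference of SMN and IgG was 0.13 ± 0.52. Chp1 was at -1.22 for SMN and -0.18 for IgG, and its summed SMN minus IgG difference was -0.51 ± 0.77. Microglia markers moved with these fractions: the list of 11 genes summed to 163 to 420 CPM in SMN, 130 in IgG and 477 to 491 in polysomes. Among them Ctss and Tyrobp were at 0 in IgG. Their part in the member values was not tested.

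**Figure D4:**
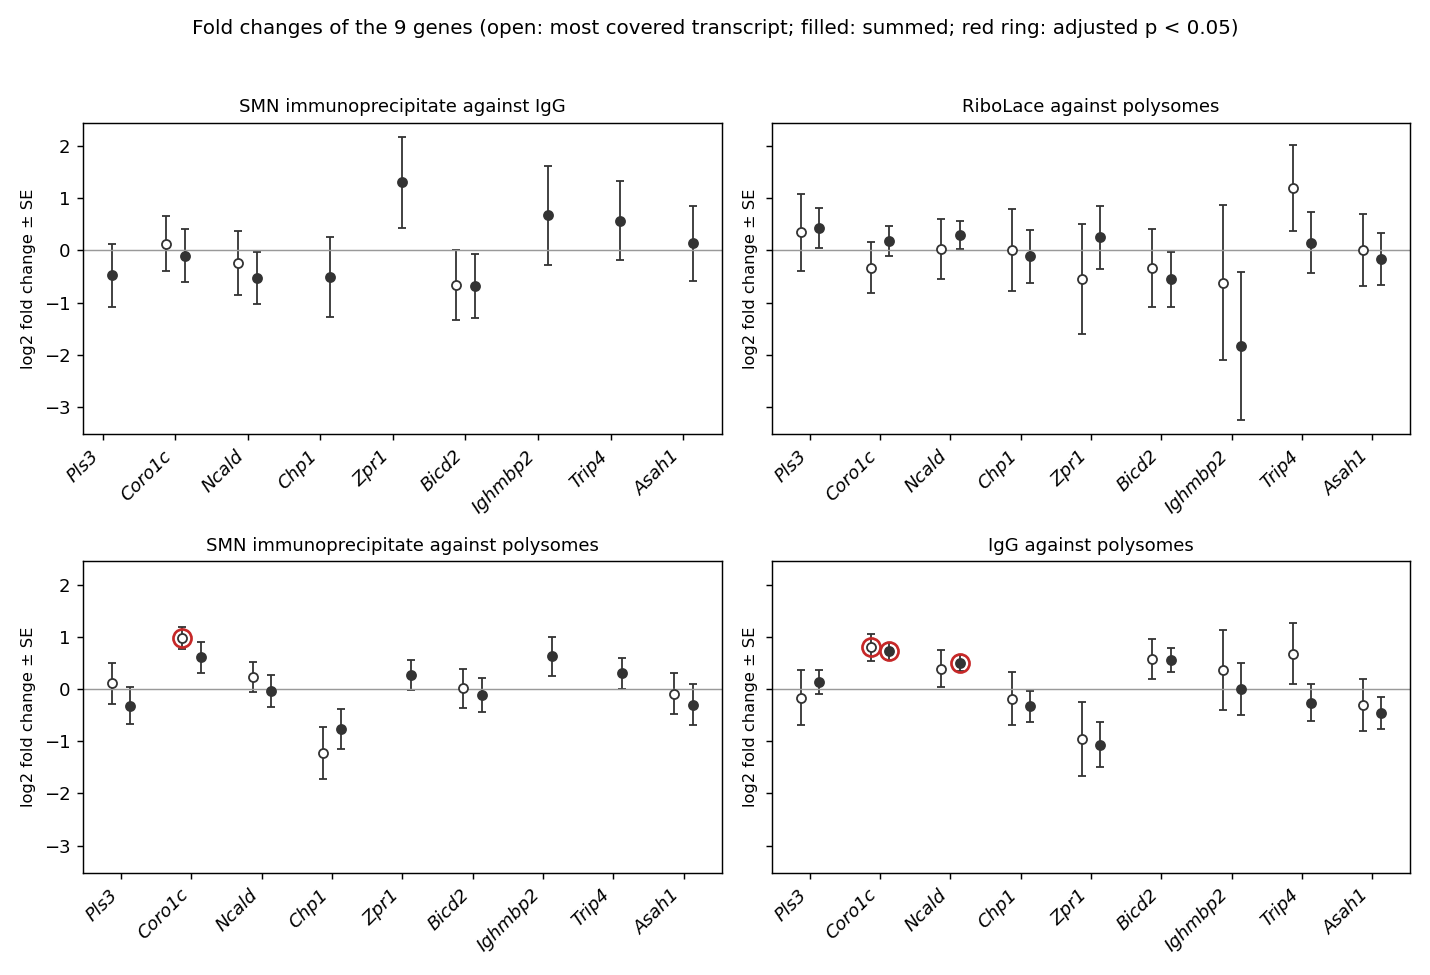
Log2 fold change ± SE of the 9 genes in the 4 comparisons, open points for the most covered transcript and filled points for reads summed over transcripts; a missing point had too few reads for the test. Red rings mark an edgeR adjusted p under 0.05: Coro1c in the SMN comparison with polysomes (chosen transcript alone), and Coro1c (both counts) and Ncald (summed) in the IgG comparison.

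Genes that work with each member were listed beside them, and are given as counts of called genes among those tested with the chosen transcript. Against IgG, no gene of the 9 pathway lists was called in the SMN libraries. Over all genes 27.5% were called in SMN against polysomes (16.4% higher), 19.5% in IgG against polysomes (10.3% higher) and 2.17% in RiboLace against polysomes (1.23% higher), and the list counts are to be read against these shares. In the actin, coronin and endocytosis list, 9 of 33 rose and 1 fell in SMN against polysomes, near the 27.5% of all genes called there, with a median of 0.25 against -0.015 for all genes. Among them were the bundling protein Fscn1 at 1.52 ± 0.25 (adjusted p = 0.000848) and the coronin Coro7 at 1.72 ± 0.29, while cofilin 2 (Cfl2) fell by 1.19. With summed reads Fscn1 and Coro7 were still called and Cfl2 was not (edgeR adjusted p = 0.0577). IgG against polysomes called 10 higher and 1 lower of 38, where 19.5% of all genes were called, led by Fscn1 (1.33 ± 0.17) and the clathrin adaptor subunits Ap2m1 (1.36 ± 0.17) and Ap2a1 (1.28 ± 0.19). In RiboLace, cofilin 1 (Cfl1) rose by 1.23 ± 0.17 and the endophilin Sh3gl1 fell by 2.62, out of 36 tested. Sh3gl1 was at 23.1 CPM in RiboLace, where 1 read was worth 20.9 and 25.4 CPM. With summed reads Cfl1 was still called and Sh3gl1 was not (edgeR adjusted p = 0.078).

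Of the neuronal calcium sensors, 3 of 11 rose in RiboLace and none fell. Among the risers were the calmodulin genes Calm2, by 0.97 ± 0.20 (edgeR adjusted p = 0.000262), and Calm3, by 0.80 ± 0.18 (adjusted p = 0.00116), both also called with summed reads. The list's median was 0.57, against -0.31 for all genes. In SMN against polysomes 1 of 8 rose (Calm3, 0.77 ± 0.25), which was not called with summed reads (edgeR adjusted p = 0.17). In IgG 3 rose and 2 fell of 12, the latter being visinin-like 1 (Vsnl1, -1.25 ± 0.26) and hippocalcin-like 1 (Hpcal1, -1.24 ± 0.38). Of the calcineurin and sodium-proton exchanger list, the catalytic subunit Ppp3cb rose in SMN (0.97 ± 0.27) and in IgG (1.28 ± 0.20). The calcineurin regulators Rcan2 (in SMN, by 1.00) and Rcan1 (in IgG, -2.29 ± 0.58) fell. With summed reads Ppp3cb was not called in SMN against polysomes (edgeR adjusted p = 0.203), while Rcan2 was (0.0460). RiboLace called none of 12, with Ppp3ca at -0.14 ± 0.28 and Ppp3cb at -0.34 ± 0.39.

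For the partners of Zpr1, Smn1 (2.32 ± 0.27), the elongation factor Eef1a1 (1.45 ± 0.32) and the receptor Egfr (1.03 ± 0.26) rose and 1 gene, Nolc1 (-0.85 ± 0.28), fell in SMN against polysomes, out of 8. Smn1 is disrupted in the Smn-/- brains of the polysomes and encodes the antibody's target, so genotype and pull-down cannot be told apart in its rise. Against IgG, Smn1 did not pass the edgeR test. Eef1a1 also rose in IgG (1.65 ± 0.17) and in RiboLace (1.06 ± 0.18); near-identical copies of it can share its reads, so its counts are uncertain. In IgG the nucleolar protein Nolc1 fell (-1.40 ± 0.36), and it fell in RiboLace too (by 2.28). Its RiboLace level was 33.6 CPM, where 1 read was worth 20.9 and 25.4 CPM. With summed reads Nolc1 was not called in RiboLace (edgeR adjusted p = 0.0746) or in SMN against polysomes. Dynein, dynactin and adaptor genes, the setting of Bicd2, gave 3 higher and 2 lower of 21 in SMN against polysomes. The dynein heavy chain Dync1h1, itself mutated in a dominant SMA, rose by 1.84 ± 0.26 (adjusted p = 0.000243). The intermediate chain Dync1i2 rose by 1.20 ± 0.25 and the nuclear pore protein Ranbp2 by 1.08 ± 0.27. With summed reads Dync1h1 was still called, while Dync1i2 (edgeR adjusted p = 0.243) and Ranbp2 (0.0947) were not. In IgG 5 rose and 2 fell of 30 (9 and 8 of 31 with summed reads), with Dync1h1 at 1.60 ± 0.18, Dync1i2 at 1.36 ± 0.25 and the dynactin subunit Dctn1 at 1.06 ± 0.20. In RiboLace 0 of 27 were called, with Dync1h1 at -0.23 ± 0.19 and Rab6b, a Golgi GTPase, at 0.022 ± 0.26. With summed reads 2 of 29 were called higher in RiboLace, Dynll2 and Dync1i2, where 2.05% of all genes were.

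Helicases related to Ighmbp2 and tRNA transcription factors were called higher in 4 of 8 cases and lower in 0 in SMN against polysomes, where 16.4% of all genes were called higher, with a median of 0.76. Neural progenitor markers moved in the same comparison, with 4 of 7 tested called higher and a median of 0.93. The list of 9 summed to 704 to 1409 CPM in SMN and 737 to 777 in polysomes, with none at 0, and its part in these counts was not tested. The helicase list included Helz (1.38 ± 0.31), Znfx1 (1.49 ± 0.42) and the TFIIIC subunit Gtf3c4 (1.01 ± 0.27). With summed reads Helz and Znfx1 were still called and Gtf3c4 was not (edgeR adjusted p = 0.229). In IgG 5 rose and 1 fell of 11, with Gtf3c1 (1.07 ± 0.18), Znfx1 (1.90 ± 0.48) and Aqr (1.43 ± 0.37) among the risers. RiboLace called none of 11, with Gtf3c1 at -0.52 ± 0.35 and Upf1 at -0.44 ± 0.35. With summed reads RiboLace called 1 of 12 higher, Gtf3c2, where 2.05% of all genes were. The list around Trip4, on the cointegrator complex and ribosome quality control, had 0 called of 12 in SMN and 0 of 18 in RiboLace, where the segregase Vcp stood at 0.36 ± 0.24 and 0.18 ± 0.23 and Tcf25 at 0.34 ± 0.24 and -0.50 ± 0.30. In IgG 1 of 19 fell, Gtpbp1 (-0.94 ± 0.31). With summed reads 1 of 19 rose in SMN against polysomes, Ankzf1, where 5.67% of all genes were called higher. In IgG the summed counts were 1 higher and 5 lower of 19, where 36.6% of all genes were called.

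Lysosomal and ceramide genes, the setting of Asah1, had calls in RiboLace and in IgG against polysomes but none in the SMN comparisons. In RiboLace 2 of 35 fell and none rose, where 0.944% of all genes were called lower. The list median was -0.96 against -0.31 for all genes. The 2 were the ganglioside activator Gm2a (-1.54 ± 0.46) and the sphingomyelinase Smpd3 (-1.22 ± 0.37). Neither was called with summed reads (adjusted p = 0.117 and 0.125), where 1 of 39 rose, the saposin precursor Psap (0.64 ± 0.15, adjusted p = 0.00269), and 1 was called lower, Sgpl1. Microglia markers had a median of -1.61 in the same comparison with 0 of 10 called, and their part was not tested. In IgG 5 of 38 fell, where 9.15% of all genes were called lower. They were led by Gm2a (-2.02 ± 0.36), the cholesterol transporter Npc1 (-1.63 ± 0.47) and Lamp1 (-0.69 ± 0.22). In SMN against polysomes 0 of 25 were called (median -0.28), and against IgG 0 of 22 (median 0.28 against 0.030 for all genes). In SMN against polysomes Psap stood at 0.32 ± 0.28 and Ctsb at -0.026 ± 0.26. The list of other genes of non-SMN1 SMA and motor neuropathy had 2 higher and 1 lower of 17 in SMN against polysomes. Higher were Dync1h1 and the ribosome biogenesis gene Las1l (1.51 ± 0.34), and lower was Lmna (-1.28 ± 0.41). With summed reads Las1l (edgeR adjusted p = 0.0913) and Lmna (0.0526) were not called. In IgG 4 were higher and 3 lower of 32 (8 and 8 of 34 with summed reads), including Dync1h1, Dctn1 and the membrane protein Vapb (-1.81 ± 0.38), and in RiboLace 0 of 31 were called, with Dync1h1 and Uba1 (0.072 ± 0.21) the most abundant.

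These list counts moved with the scaling, the count used and the library left out. In SMN against polysomes, scaling by library totals gave 7 higher and 6 lower of 33 actin genes, with a median of -0.010 against -0.28 for all genes, a scaling that moved all genes together, and 3 higher and 1 lower of 8 in the helicase list (median 0.50). With summed reads the counts were 3 higher and 0 lower of 37 actin genes and 2 and 0 of 11 in the helicase list. Over all genes, library totals called 671 higher and 1447 lower of 6484, and summed reads 560 higher and 337 lower of 9882. Without the first SMN library the list counts were 3 and 0 of 38 actin genes and 0 called of 11 in the helicase list. Over all genes 595 of 10929 were called there. Without the second they were 14 and 2 of 37 and 5 and 1 of 11, with 3360 of 10996 over all genes. Without the third they were 1 and 0 of 37 and 1 and 0 of 11, with 465 of 10827 over all genes. In IgG against polysomes, library totals gave 9 higher and 3 lower of 38 actin genes and 0 higher and 9 lower of 38 lysosomal and ceramide genes, and DESeq2 gave 7 and 0, and 0 and 1. With summed reads, IgG had 2 higher and 11 lower of 40 lysosomal and ceramide genes. Over all 12709 genes in IgG, library totals called 1037 higher and 1840 lower, and DESeq2 443 higher and 187 lower. Summed reads called 19.1% of all genes higher and 17.5% lower. The calcium sensor list in RiboLace had 3 higher and 0 lower with DESeq2 and with library totals too, while limma-voom called no gene. Over all 10807 genes, DESeq2 called 192 higher and 6 lower, and library totals 158 higher and 95 lower.

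By the correlation of log2 CPM over the 8 libraries, the genes most like Coro1c were Dchs1 (Pearson r = 0.988), Edc4 (0.988) and Huwe1 (0.986), out of 6974 genes. Those most like Ncald were Pak1ip1 (0.977), Arl6 (0.973) and Mesdc2 (0.965), and those most like Bicd2 were Ndrg1 (0.963), Fubp1 (0.956) and Lss (0.950). With reads summed over transcripts, over 10311 genes, all 9 of these names changed, to Vps8 (0.991), Cdc42bpa (0.990) and Ddr1 (0.985) for Coro1c, Gtpbp10 (0.983), Itpa (0.973) and Cep128 (0.973) for Ncald, and Kctd20 (0.974), Met (0.973) and Fndc4 (0.960) for Bicd2. The 8 points share libraries and depth and fall into 4 groups, so these values are a description.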

How the data were processed

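The authors' deposited table gives counts: whole ribosome footprint reads per Ensembl transcript for the 8 libraries, not normalized, with transcript names, biotypes and region lengths. The submitters' processing notes name Trimmomatic 0.36, Bowtie2 2.2.6, SAMtools and the build GRCm38.p4. The treatment of reads that match more than 1 isoform is not stated in those notes or the labels. Transcripts were grouped by Ensembl gene identifier, and genes were named by stripping the transcript suffix. The protein-coding transcript with the highest sum of reads over the 8 libraries, each scaled to its library total, stood for each gene. For the 9 members this was also the protein-coding transcript with the most reads. Each comparison used edgeR 4.0.16 in R 4.3.3 on its own libraries: the robust quasi-likelihood test after TMM scaling, a filterByExpr minimum count of 10 and Benjamini-Hochberg adjustment over all genes tested, with a call at an adjusted p under 0.05. An SE is the fold change over the root of its F statistic. DESeq2 1.42.0, limma-voom (limma 3.58.1), library totals, other filters, another transcript, 1 fit of all 8 libraries and leaving out each library were alternatives. The procedure was tested on counts simulated with the same dispersion, the spread beyond counting error, in all comparisons. The fitted common dispersion ran from 0.0024 in RiboLace to 0.077 in SMN against IgG, so the simulation does not show how each fit performed. Members, gene lists and tests were chosen with earlier results of these data known. All 9 members are named; of each list, up to 3 called genes by p, or the 2 most abundant where none was called; and the 3 genes of most alike pattern for the 3 members with the most reads. The labels do not say whether equal replicate numbers pair libraries, and the main tests used no pairing. Same-numbered RiboLace and polysome libraries deviated with r = 0.016, and SMN and polysome libraries with -0.12 and -0.088. With few reads per gene, mostly counting error can be left in such deviations, so these values do not exclude pairing. Intervals cover counting error only. Without molecular identifiers, reads are not independent molecules.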

Additional observations from a re-analysis of the deposited data

How the results depend on the processing

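Member values were mostly small against their errors, so signs turned often, and the cause was not tested unless stated. With reads summed over transcripts, 0 genes were called in SMN against IgG, 897 in SMN against polysomes (0 members) and 5045 in IgG against polysomes (2 members). Signs turned for Coro1c in SMN against IgG (-0.098), for Coro1c (0.18), Chp1 (-0.11), Zpr1 (0.25) and Asah1 (-0.17) in RiboLace, for Pls3 (-0.32), Ncald (-0.037) and Bicd2 (-0.11) in SMN against polysomes, and for Pls3 (0.15) and Trip4 (-0.26) in IgG against polysomes. DESeq2 called 0 genes in SMN against IgG and 630 in IgG against polysomes (0 members), turned Bicd2 to -0.043 in SMN against polysomes, and split the RiboLace calls into 192 higher and 6 lower. Limma-voom called 0 genes in RiboLace and turned Zpr1 (0.031) and Ighmbp2 (0.20). Library totals called 2 members in SMN against polysomes and 0 in IgG against polysomes, and turned Pls3 (-0.15), Ncald (-0.024) and Bicd2 (-0.25) in the former, where this scaling moved the median of all genes to -0.28 and those 3 with it. No filter on low counts called 0 members in IgG against polysomes and turned Ncald (-0.047), Chp1 (-0.068) and Asah1 (-0.069) in RiboLace and Pls3 (-0.052) and Bicd2 (-0.15) in SMN against polysomes. A minimum count of 50 called 0 genes in SMN against IgG and 360 in SMN against polysomes, from fewer genes tested, with no member left in either. All 8 libraries in 1 fit called 2, 70 and 1097 genes in SMN against IgG, RiboLace and IgG against polysomes, 0 members in the last, and gave Bicd2 -0.017 in SMN against polysomes. The longest transcript gave 0.69 for Pls3 and -0.27 for Trip4 in IgG against polysomes. The replicate block called 99 genes in RiboLace, and 372 in SMN against polysomes with 0 members, where Coro1c was at 1.02 (adjusted p = 0.125) and Pls3 (-0.30), Ncald (-0.020) and Bicd2 (-0.68) turned; the third SMN library has no partner. No paired analysis was possible for SMN against IgG and IgG against polysomes because 1 IgG library leaves fewer than 2 shared numbers.

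Leaving out 1 library gave 0 to 5 genes called in SMN against IgG, 33 to 186 in RiboLace, and 145 to 3360 in SMN against polysomes with 0 to 1 members. In SMN against IgG, Coro1c ran from -0.016 to 0.19, and with summed reads Coro1c from -0.29 to 0.10 and Asah1 from -0.22 to 0.49. In RiboLace, Ncald ran from -1.92 to 0.87, Chp1 from -1.13 to 0.66, Bicd2 from -1.26 to 0.10 and Asah1 from -1.46 to 0.75. Ighmbp2 ran from -7.52, a fitted value against a lone library at 0 reads and no bound, to 0.44. With summed reads, Coro1c ran from -0.018 to 0.32, Ncald from -0.050 to 0.60, Chp1 from -0.68 to 0.34, Zpr1 from -0.027 to 0.51 and Asah1 from -1.74 to 0.65 (0.046 without the second polysome library). In SMN against polysomes, Pls3 ran from -0.32 to 0.32, Ncald from -0.037 to 0.43, Bicd2 from -0.68 to 0.31 and Asah1 from -0.34 to 0.19, and with summed reads Ncald from -0.31 to 0.20, Bicd2 from -0.56 to 0.16 (0.042 without the first SMN library) and Asah1 from -0.55 to 0.030. In IgG against polysomes, leaving out a polysome library left 1 against 1 and a value with no test, from -0.33 to 0.065 for Pls3 and -0.48 to 0.069 for Asah1, and with summed reads -0.22 to 0.27 for Ighmbp2. Without a polysome library, RiboLace left no member to test with the chosen transcripts. Divided by transcript in place of coding length, 22 per-kilobase levels moved by more than their spread (for IgG, the counting interval) and 14 did not. Depth limited the RiboLace values most, where 1 read of the chosen transcripts was worth 20.9 and 25.4 CPM.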
